A study of Mus musculus with 6 samples.

Results

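Transcripts of 10 neutrophil granule and alarmin genes were measured in inguinal white adipose tissue (IngWAT) of WT and SAKI mice. The genes were chosen by symbol among the 34745 genes of the deposited count tables, when earlier results of these data were already known. All 10 were found. They were Mpo and Elane of the primary granules, Ltf, Camp, Ngp, Lcn2 and Cd177 of the secondary granules, the alarmins S100a8 and S100a9, and the secreted resistin-like gene Retnlg. The data were bulk poly(A) RNA-seq of 6 libraries, from 3 WT and 3 SAKI male mice, each library from a separate animal. SAKI mice carry a LSL-Slc35d3 transgene, in which a stop cassette flanked by loxP sites precedes Slc35d3, together with Cre recombinase driven by the adiponectin promoter, so the transgene is switched on in adipocytes. The WT mice are wild type by their labels, and the methods of the study describe the controls as littermates that hold the LSL-Slc35d3 allele and lack Cre. Both groups, on a C57BL/6 background, received normal chow (10 kcal% fat) for 10 weeks, which they began at 6 and ended at 16 weeks of age, and the labels record perfusion with PBS. Where only SAKI mice carry Cre, an effect of Cre itself cannot be told apart from that of the transgene.

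Neutrophils are short-lived phagocytes that are made in bone marrow and leave it with a full set of granules. Their granule proteins are transcribed in turn as the cells mature. Myeloperoxidase and the serine proteases of the primary granules are made first, at the promyelocyte stage, and lactoferrin, cathelicidin and the other secondary granule proteins follow at the myelocyte stage. S100a8 and S100a9 mRNA remains abundant in circulating neutrophils and is also present in monocytes, while Lcn2 can be made by adipocytes, macrophages and epithelial cells too. In lean adipose tissue neutrophils are few, and their recruitment has been studied mainly in obesity.

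The libraries held between 15354161 and 18787036 counts (median 15732636), and 15400 genes passed the filter on low counts. Slc35d3, the gene carried by the transgene, was at 73.3, 82.1 and 74.4 CPM in WT mice and at 745, 793 and 770 CPM in SAKI mice, which differ by 3.33 on the log2 scale (edgeR quasi-likelihood test, adjusted p = 0.000244). CPM are counts relative to the library size after scaling with TMM factors. WT mouse 2 stood apart from the other WT mice. On the first principal component, which held 50.7% of the variance, it lay at 17.7, beside SAKI mice at 19.0 to 22.0, while WT 1 and WT 3 lay at -33.1 and -47.5. Its share of mitochondrial transcripts was 13.8%, against 7.31% and 8.78% in the other WT mice and 13.1% to 15.9% in SAKI mice. Results that rest on WT 2 are therefore given with and without it. Adipocyte markers were abundant in every library, with 10 genes summing to between 24350 and 35964 CPM.

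The 10 genes were rare transcripts in this tissue. Together they took 126, 238 and 449 counts in the WT libraries and 690, 730 and 734 counts in the SAKI libraries, which is 7.73, 15.4 and 29.4 CPM against 45.0, 47.2 and 37.9 CPM. Every SAKI mouse was above every WT mouse in this sum. All 10 genes had a fitted difference above 0, and their median was 1.23 on the log2 scale. Elane, at 0.04 ± 1.06 (SE), was within its SE of 0. Of all genes tested, 7641 lay above 0 and 7759 below, and the median was -0.0035. The 10 genes were picked when earlier results of these data were known, so this contrast cannot serve as a test of the set. None of the 10 genes passed the threshold after adjustment over all genes. In bulk tissue, more neutrophils, more RNA per neutrophil and transcripts from other cells cannot be told apart.

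Against an adjusted p of 0.05, 0 of the 10 genes were called by edgeR's quasi-likelihood test, and 0.0325% of all genes tested (5 of 15400) were called. At an unadjusted p under 0.05, 4 of the 10 genes (Ngp, Camp, Mpo and S100a9) were higher in SAKI mice, against 8.36% of all genes tested. Every SAKI mouse lay above every WT mouse in 3 genes (Ngp, Camp and S100a9), a pattern found in 13.0% of all genes tested. With 3 mice against 3, the smallest p of an exact two-sided permutation test is 0.1. Any gene without overlap reaches it, so for these 3 genes it only restates the separation. DESeq2 called 1 of the 8 genes to which it gave an adjusted p, namely Ngp, beside 4.61% of all genes, and gave none to Elane and Cd177. Without WT 2, edgeR called Ngp, Camp and Mpo, 3 of the 10 genes, beside 16.6% of all genes. These background shares differ between the fits, and the number called among the 10 genes is read against the share of the same fit. Because the 10 genes were picked when earlier results were known, the shares describe the background and do not test the set.

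**Figure D1:**
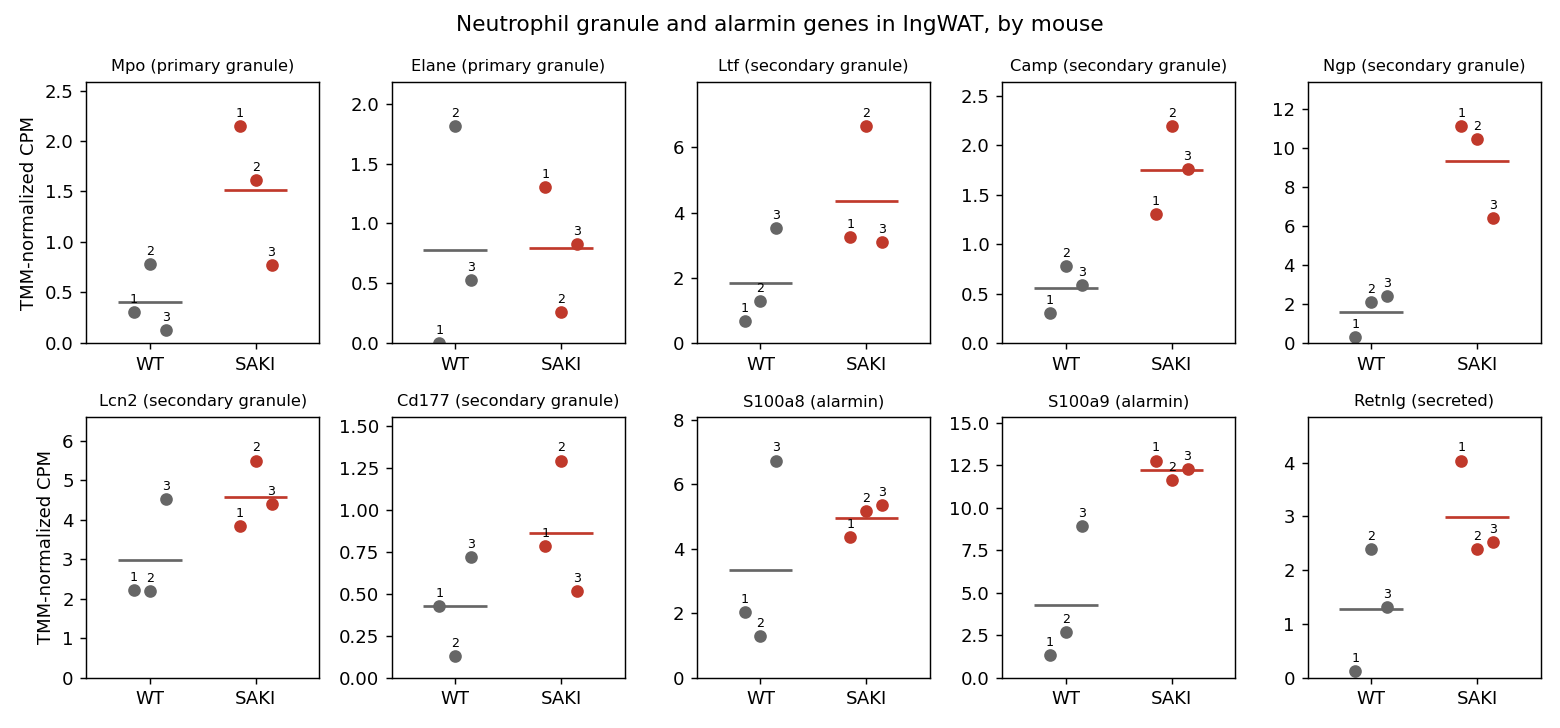
Level of each of the 10 genes in each mouse, in TMM-normalized CPM on a linear axis from 0 that differs between panels. Points are mice, numbered as in their labels, and lines are group means of 3 mice. Ngp, Camp and S100a9 show no overlap between WT and SAKI mice, and in Elane the SAKI mice lie inside the WT range.

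The primary granule genes had few counts in every mouse. Mpo, which encodes myeloperoxidase, the enzyme that makes hypochlorous acid, had 5, 12 and 2 counts in WT mice and 33, 25 and 15 counts in SAKI mice, or 0.307, 0.778 and 0.131 CPM against 2.15, 1.62 and 0.775 CPM. WT 2 and SAKI 3 met at the same level, so the groups overlapped at that point alone. The log2 fold change was 1.87 ± 0.65 (SE, n = 3 and 3), with an unadjusted p of 0.0228 from the model and an adjusted p of 0.224 (edgeR), and an exact permutation p of 0.2. Without WT 2 it was 2.72 with an adjusted p of 0.0399 (edgeR).

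Elane encodes neutrophil elastase, a serine protease stored beside myeloperoxidase. It had 0, 28 and 8 counts in WT mice and 20, 4 and 16 counts in SAKI mice, or 0, 1.82 and 0.524 CPM against 1.3, 0.259 and 0.827 CPM. The highest mouse was WT 2 and the lowest WT 1, where 0 counts allows up to 0.184 CPM, so all SAKI mice fell inside the WT range. The log2 fold change was 0.04 ± 1.06 (SE), with an adjusted p of 0.987 (edgeR), and without WT 2 it was 1.61 with an adjusted p of 0.338 (edgeR). It turned below 0 without WT 1, without WT 3 or without SAKI 1, so the data fix no direction for Elane.

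The widest log2 fold change was that of Ngp, a secondary granule gene. Mpo, a primary granule gene, was above Camp, Ltf, Cd177 and Lcn2 in this measure. Ngp, neutrophilic granule protein, a cystatin-like protein of secondary granules, was at 0.307, 2.07 and 2.42 CPM in WT mice and at 11.1, 10.5 and 6.41 CPM in SAKI mice, from 5, 32 and 37 counts against 171, 162 and 124 counts. The lowest SAKI mouse was well above the highest WT mouse. The means were 1.6 ± 1.13 and 9.34 ± 2.56 CPM (SD, n = 3 each), and the log2 fold change was 2.54 ± 0.61 (SE), with an unadjusted p of 0.0040 from the model and an adjusted p of 0.169 (edgeR). DESeq2 gave Ngp a log2 fold change of 2.53 and an adjusted p of 0.00138, and edgeR without WT 2 gave 2.78 and an adjusted p of 0.0433.

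Camp encodes cathelicidin, the precursor of an antimicrobial peptide. It was at 0.307, 0.778 and 0.589 CPM in WT mice and at 1.3, 2.2 and 1.76 CPM in SAKI mice, from 5, 12 and 9 counts against 20, 34 and 34 counts. The groups did not overlap. The log2 fold change was 1.64 ± 0.41 (SE), with an unadjusted p of 0.0053 from the model and an adjusted p of 0.173 (edgeR), and without WT 2 it was 1.96 with an adjusted p of 0.0349 (edgeR). DESeq2 gave Camp an adjusted p of 0.0787.

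Ltf encodes lactoferrin, an iron-binding protein. It was at 0.675, 1.3 and 3.54 CPM in WT mice and at 3.26, 6.66 and 3.10 CPM in SAKI mice. WT 3 lay above SAKI 1 and SAKI 3, and the log2 fold change of 1.24 ± 0.61 (SE) had an adjusted p of 0.325 (edgeR). It ranged from 0.77 without SAKI 2 to 2.13 without WT 3.

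Lcn2 encodes lipocalin 2, which binds iron-loaded siderophores. It was at 2.21, 2.2 and 4.52 CPM in WT mice and at 3.85, 5.50 and 4.39 CPM in SAKI mice, so that WT 3 again lay within the SAKI range. Its log2 fold change was 0.62 ± 0.35 (SE), with an adjusted p of 0.371 (edgeR), and it ranged from 0.44 without WT 1 to 1.05 without WT 3.

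Cd177, a surface glycoprotein stored in secondary granules, was at 0.430, 0.130 and 0.720 CPM in WT mice and at 0.782, 1.29 and 0.517 CPM in SAKI mice, from 2 to 11 and 10 to 20 counts. SAKI 3 lay below WT 3, and the log2 fold change was 0.99 ± 0.61 (SE), with an adjusted p of 0.415 (edgeR), and it ranged from 0.57 without SAKI 2 to 1.57 without WT 3.

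S100a8 and S100a9 encode calcium-binding proteins that pair as calprotectin and act as alarmins when released. S100a9 was at 1.35, 2.66 and 8.90 CPM in WT mice and at 12.8, 11.6 and 12.3 CPM in SAKI mice. The SAKI mice were close to each other and above all WT mice, which spread widely. The coefficient of variation was 4.65% in SAKI mice, where counting alone gives 7.0%, and 93.8% in WT mice, where counting alone gives 12.3%. The log2 fold change of S100a9 was 1.51 ± 0.60 (SE), with an unadjusted p of 0.0398 from the model and an adjusted p of 0.256 (edgeR). With 1 mouse left out it ranged from 1.08 without WT 1 (adjusted p = 0.337, edgeR) to 2.61 without WT 3 (adjusted p = 0.150, edgeR), and it was 1.26 without WT 2.

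S100a8, the partner of S100a9, was at 2.02, 1.3 and 6.74 CPM in WT mice and at 4.37, 5.17 and 5.38 CPM in SAKI mice. WT 3 was the highest of all 6 mice. Its difference was 0.57 ± 0.57 (SE) as a log2 fold change, with an adjusted p of 0.611 (edgeR), and it ranged from 0.19 without WT 2 to 1.58 without WT 3. The ratio of S100a9 to S100a8 counts within a library was 0.667, 2.05 and 1.32 in WT mice and 2.93, 2.25 and 2.28 in SAKI mice. The groups did not overlap, but WT 2, with 41 and 20 counts, lay close to SAKI 2 and SAKI 3. This gap was not set against counting error. From 0.667 in WT 1 to 2.93 in SAKI 1, the alarmin pair was not in one proportion across mice.

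Retnlg, a resistin-like gene of neutrophils, was at 0.123, 2.40 and 1.31 CPM in WT mice and at 4.04, 2.39 and 2.53 CPM in SAKI mice. WT 2 and SAKI 2 were level, and the other mice were separated by genotype. Its log2 fold change was 1.23 ± 0.75 (SE), with an adjusted p of 0.410 (edgeR), and it ranged from 0.68 without WT 1 to 2.07 without WT 2 (adjusted p = 0.108, edgeR).

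**Figure D2:**
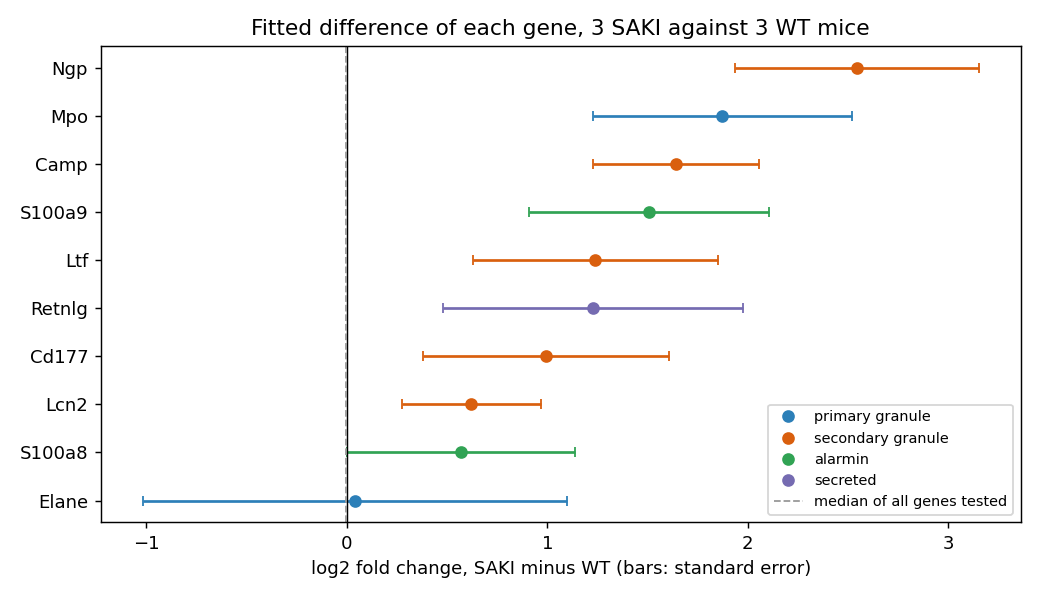
Fitted log2 fold change of each gene, SAKI minus WT, from edgeR on 3 mice per group. Points are estimates, bars are standard errors, colours are granule classes, and the dashed line is the median of all genes tested. Ngp is at 2.54 and Elane at 0.04, and all 10 estimates lie above 0.

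Compared per length of transcript, in FPKM, S100a9 was the most abundant of the 10 in both groups, at a mean of 5.73 in WT and 16.9 in SAKI mice. In WT mice S100a8 followed at 3.33, then Retnlg at 2.03 and Ngp at 1.27, and these neighbours did not differ beyond their SDs. In SAKI mice Ngp was next at 7.67 ± 1.97 FPKM, then S100a8 at 5.10 ± 0.652, with SD ranges that met. Retnlg followed at 4.93 ± 1.40, within its SD of S100a8, and Camp was at 2.33 ± 0.616. Lcn2, Elane and Ltf lay between 0.787 and 0.948 FPKM in SAKI mice, and Mpo and Cd177 were lowest in both groups, at 0.315 FPKM or less. By mean FPKM, Ngp ranked below S100a8 and Retnlg in WT mice and above both in SAKI mice. This order did not hold in every mouse. Ngp was above S100a8 in WT 2 (1.65 against 1.28 FPKM) and below it in SAKI 3 (5.40 against 5.63 FPKM). In WT 1 Ngp was above Retnlg (0.263 against 0.212 FPKM).

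Primary and secondary granule genes were then set against each other within each mouse. Mpo and Elane summed to 0.307, 2.59 and 0.655 CPM in WT mice and to 3.45, 1.88 and 1.6 CPM in SAKI mice. WT 2 lay inside the SAKI range, and the means were 1.19 ± 1.23 and 2.31 ± 1.00 CPM (SD, n = 3 each), a ratio of 1.95. This ratio rested on WT 2. Without it, the WT mean was 0.481 CPM and the ratio 4.81, with no overlap between the remaining mice. The 5 secondary granule genes summed to 3.93, 6.48 and 11.8 CPM in WT mice and to 20.3, 26.1 and 16.2 CPM in SAKI mice, with means of 7.40 ± 4.01 and 20.9 ± 5.0 CPM, a ratio of 2.82. S100a8, S100a9 and Retnlg summed to 3.50, 6.35 and 17.0 CPM against 21.2, 19.2 and 20.2 CPM, a ratio of means of 2.26 that became 4.10 without WT 3. In the secondary granule and alarmin sums the groups did not overlap. Among their genes, Ltf, Lcn2, Cd177, S100a8 and Retnlg overlapped singly, and Ngp, Camp and S100a9 did not. Such separation was also found in sums of other gene lists, read further below. The T cell and proliferation sums were higher in every SAKI mouse. The sums of other S100, red cell, endothelial and immediate early genes were lower in every SAKI mouse. Ngp gave 11.1, 10.5 and 6.41 CPM of the secondary sums in SAKI mice, against 0.307, 2.07 and 2.42 CPM in WT mice. S100a9 gave 12.8, 11.6 and 12.3 CPM of the alarmin sums in SAKI mice, against 1.35, 2.66 and 8.90 CPM in WT mice. The sums were not taken without Ngp or without S100a9.

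The secondary sum was 12.8, 2.50 and 18.0 times the primary sum in WT mice and 5.89, 13.9 and 10.1 times in SAKI mice. The SAKI mice lay inside the WT range, which WT 2 widened through its Elane count. On the log2 scale the ratio of group sums was 2.64 in WT and 3.18 in SAKI mice, a gap smaller than the SD of 1.52 between WT libraries. Without WT 2 the WT ratio was 4.03, above that of SAKI mice. A shift between the granule classes was thus not detectable at this depth and spread. On the FPKM scale the ratios of means, SAKI over WT, were 1.31 for primary, 3.94 for secondary and 2.43 for S100a8, S100a9 and Retnlg. The order of the classes by ratio turned on single WT mice. Without WT 2 the CPM ratios were 4.81, 2.66 and 1.97 in the same order, which puts the primary class from last to first place. The FPKM ratios without WT 2 were 3.71, 4.15 and 2.19. Without WT 3 the CPM ratios were 1.59, 4.01 and 4.10, which puts S100a8, S100a9 and Retnlg first. The FPKM ratios without WT 3 were 1.10, 5.02 and 4.15, with the secondary class first.

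**Figure D3:**
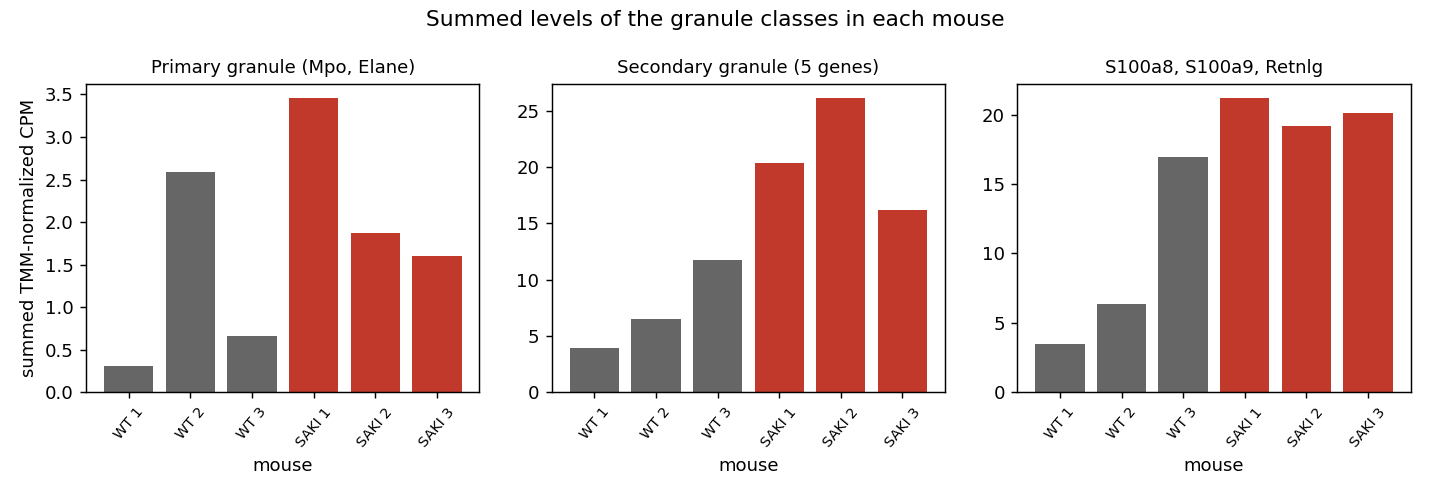
Summed CPM of the primary granule genes, the secondary granule genes and S100a8, S100a9 and Retnlg in each mouse, as bars from 0 on an axis of its own in each panel. WT 2, at 2.59 CPM, lies among SAKI mice in the primary granule panel, while in the other panels all SAKI bars exceed all WT bars.

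The genes did not follow a single profile across WT mice. Elane, Mpo and Retnlg were highest in WT 2, whereas Ltf, S100a8, S100a9, Lcn2, Cd177 and, by a small margin, Ngp were highest in WT 3, and WT 1 had the lowest level of Ngp, Camp, Ltf, S100a9, Retnlg and Elane. Camp was highest in WT 2. Which further genes separated the groups turned on single WT mice. With WT 3 left out, 7 genes were without overlap (Ngp, Camp and S100a9 with Ltf, S100a8, Lcn2 and Cd177), beside 16.1% of all genes tested. With WT 2 left out, 5 were (the same 3 with Mpo and Retnlg), beside 26.1% of all genes.

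**Figure D4:**
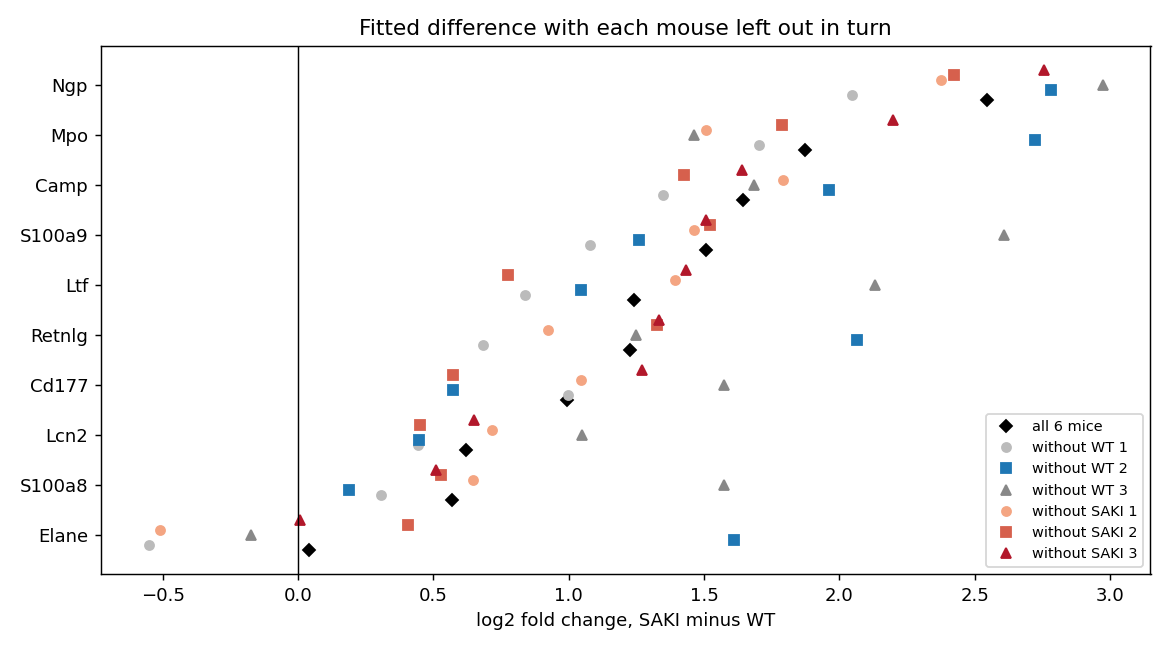
Fitted log2 fold change of each gene, SAKI minus WT, with all 6 mice and with each mouse left out in turn (edgeR). Elane runs from -0.55 without WT 1 to 1.61 without WT 2, while all estimates of the other 9 genes lie above 0.

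Several of the genes are neighbours in the genome. All positions are those of the deposited tables, in GRCm38. Camp (ENSMUSG00000038357, chr9:109847379-109849617, minus strand), Ngp (ENSMUSG00000032484, chr9:110419747-110423012, plus strand) and Ltf (ENSMUSG00000032496, chr9:111019271-111042767, plus strand) lie on the same stretch of chromosome 9, with gaps of 570.1 and 596.3 kb. S100a8 (chr3:90668978-90670035, plus strand) and S100a9 (chr3:90692632-90695721, minus strand) lie 22.6 kb apart. Elane (chr10:79886312-79888216, plus strand) sits between Prtn3, which ends 3137 bases from it, and the adipsin gene Cfd, 2636 bases away. Cfd was at 2827, 5977 and 3565 CPM in WT mice and at 3832, 2839 and 3482 CPM in SAKI mice. Elane and Cfd were both highest in WT 2, then SAKI 1, and both lowest in WT 1, then SAKI 2. Whether the nearness of Cfd bears on the few counts of Elane was not tested. Lcn2 is at chr2:32384633-32388252 (minus strand), Retnlg at chr16:48872608-48874498 (plus strand), Mpo at chr11:87793581-87804413 (plus strand) and Cd177 at chr7:24743983-24760311 (minus strand). All 10 are annotated as protein-coding genes in GENCODE. Mpo overlaps the antisense gene Gm11505, which had 0 counts in all 6 libraries, and the other 9 overlap no annotated gene.

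C/EBP factors and PU.1 are transcription factors of the granulocyte lineage, and C/EBP epsilon is known for its role in secondary granule genes. The 250 bases upstream of the RefSeq start (GRCm38.p6) are shown, 5′ to 3′ along the gene, for the 3 genes whose groups did not overlap. Capitals mark matches to the C/EBP sequence TTGCNNAA on either strand.
Ngp (chr9:110419558-110419807, plus strand): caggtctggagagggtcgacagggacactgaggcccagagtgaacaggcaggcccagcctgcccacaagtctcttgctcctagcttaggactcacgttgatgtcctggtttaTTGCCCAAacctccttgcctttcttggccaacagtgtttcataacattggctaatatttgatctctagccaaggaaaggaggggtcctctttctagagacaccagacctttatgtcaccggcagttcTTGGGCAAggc
Camp (chr9:109849457-109849706, minus strand): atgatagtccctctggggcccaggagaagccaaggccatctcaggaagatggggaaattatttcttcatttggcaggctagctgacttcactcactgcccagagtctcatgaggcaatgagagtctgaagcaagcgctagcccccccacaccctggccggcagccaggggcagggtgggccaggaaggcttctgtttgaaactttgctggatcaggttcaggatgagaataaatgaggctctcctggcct
S100a9 (chr3:90695722-90695971, minus strand): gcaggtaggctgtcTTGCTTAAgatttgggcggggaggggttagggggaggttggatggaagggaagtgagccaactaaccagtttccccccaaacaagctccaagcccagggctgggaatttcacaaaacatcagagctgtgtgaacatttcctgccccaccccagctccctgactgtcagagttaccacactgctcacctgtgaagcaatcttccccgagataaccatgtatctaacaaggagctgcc
Ngp holds a pair of matches, 138 and 11 bases upstream of the start, S100a9 holds 1, 236 bases upstream, and Camp holds none. These distances refer to the RefSeq start. By the deposited positions above, the Ngp and Camp windows reach into the genes, and the Ngp match at 11 bases lies inside the gene. Among the 10 windows, 5 hold TTGCNNAA (Ngp, Ltf, S100a9, Lcn2 and Retnlg), against 9.56% of the 32851 windows in the RefSeq table. The PU.1 sequence GAGGAA was searched in the same way and no match of it overlapped a match of TTGCNNAA in these 10 windows. Of these, 6 hold it (Ltf, S100a8, Lcn2, Elane, Mpo and Cd177), against 23.3% of all windows. A match describes letters only and is not shown to be a bound site.

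Other genes of the neutrophil programme were read from lists, none of whose genes passed an adjusted p of 0.05 (edgeR). Of 6 other primary granule genes, 3 were tested and all 3 had estimates above 0 (median log2 fold change 0.32). Serpinb1a was at 0.32 ± 0.16 (SE), and Ctsc, at 0.003 ± 0.11 (SE), was within its SE of 0. Prtn3, proteinase 3, was at 2.76, 17.2 and 2.75 CPM in WT mice and at 22.0, 15.6 and 13.8 CPM in SAKI mice. WT 2, the highest mouse for Elane, lay among the SAKI mice, and the log2 fold change of 1.18 had an adjusted p of 0.403 (edgeR). Below the filter were Ctsg, cathepsin G, with 1, 2 and 4 counts in WT mice and 12, 5 and 7 in SAKI mice, Prss57 with 6, 3 and 5 in both groups, and Ms4a3 with 1, 3 and 0 against 0, 1 and 2. The groups were apart in Ctsg and overlapped in both others.

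Of 12 other secondary and tertiary granule genes, 9 were tested, 7 with estimates above 0 and 2 below (median 0.26). Cybb, a subunit of the phagocyte NADPH oxidase that macrophages also express, was at 50.7 to 61.9 CPM in WT and 93.5 to 96.0 CPM in SAKI mice, or 0.72 as a log2 fold change, with an adjusted p of 0.148 (edgeR). The antiprotease gene Slpi had a log2 fold change of -1.33 and the peptidoglycan recognition gene Pglyrp1 one of 0.50, both without overlap. Mmp8, neutrophil collagenase, was at 0.71 with overlap. Below the filter, Fcnb, ficolin B, had 0 counts in all WT mice and 4, 2 and 6 counts in SAKI mice, Olfm4 had 2, 0 and 4 against 0, 1 and 6, and Itgb2l had 3, 0 and 0 against 1, 5 and 5.

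Of 20 genes of mature neutrophils, 10 were tested, 6 with estimates above 0 and 4 below (median 0.55). Cxcr2, a chemokine receptor by which neutrophils are drawn to tissue, was at 3.93 to 5.12 CPM in WT and 7.69 to 10.9 CPM in SAKI mice, or 1.05 as a log2 fold change, with an adjusted p of 0.154 (edgeR). The protease gene Asprv1 had a log2 fold change of 0.74, while Lrg1 had one of -0.79. Ly6g, the surface antigen that defines mouse neutrophils, had 0, 7 and 0 counts in WT mice and 4, 7 and 5 counts in SAKI mice. Padi4, the enzyme that citrullinates histones in neutrophil extracellular traps, had 4, 40 and 4 counts in WT mice and 45, 34 and 38 counts in SAKI mice. Clec4d and Clec4e, C-type lectin receptors of myeloid cells, had estimates of the opposite sign, with log2 fold changes of -1.52 and -0.61 and adjusted p of 0.292 and 0.539 (edgeR). Of the 10 genes below the filter, Ly6g among them, Trem1 had 2, 1 and 12 counts in WT mice and 1, 0 and 5 in SAKI mice, Stfa1 and Stfa2l1 had 1 and 2 counts in WT 3 alone, and Stfa2 had none. In Ly6g, Padi4 and Prtn3, WT 2 lay at or within the SAKI range while WT 1 and WT 3 lay below it.

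Of 9 factors of granulopoiesis, 5 were tested, 2 above 0 and 3 below (median -0.02), among them Gfi1 at a log2 fold change of 0.57 and Cebpa, which adipocytes express strongly, at -0.35. Of 9 neutrophil chemoattractants and their receptors, 5 were tested, 2 above 0 and 3 below (median -1.52). Cxcl1, a ligand of Cxcr2, had 33, 46 and 96 counts in WT mice and 17, 19 and 30 in SAKI mice, and Cxcl2, another ligand, had 10, 26 and 27 against 7, 4 and 6. Both ligands were lower in every SAKI mouse than in every WT mouse, with log2 fold changes of -1.52 and -1.97 (edgeR adjusted p = 0.195 and 0.177). The estimates of the ligands were thus opposite in sign to that of their receptor Cxcr2. Of 10 genes listed as receptors or partners of the alarmins and of lipocalin 2, 9 were tested, 6 above 0 and 3 below (median 0.22). Cd33, described as a receptor of S100a9, had a log2 fold change of 0.88, and the lipocalin 2 receptor gene Slc22a17 and the S100a9 receptor gene Bsg had values of -0.45 and -0.31.

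Relatives of the alarmins and of Retnlg had estimates mostly below 0. Of 10 other S100 genes, 7 were tested, 1 above 0 and 6 below (median -0.43), with log2 fold changes of -0.44 for S100a11 and -0.43 for S100a10, both lower in every SAKI mouse. Of 3 other resistin family genes, 2 were tested. Retn, the adipocyte hormone resistin, was at 365 to 593 CPM in WT and 237 to 278 CPM in SAKI mice, or -0.77 as a log2 fold change, with an adjusted p of 0.180 (edgeR), and Retnla was at 0.54 with overlap.

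Markers of other blood and immune cells were summed in the same way, and none of these genes passed edgeR's adjusted threshold. The T cell and red cell sums separated the groups, and all other sums given here overlapped. T cell markers summed to 224 to 343 CPM in WT and 418 to 487 CPM in SAKI mice, and 8 of 8 had estimates above 0. Macrophage markers summed to 627 to 1761 CPM against 1629 to 1978 CPM (9 of 10 above 0), monocyte markers to 273 to 899 against 770 to 822 CPM (9 of 10), and B cell markers to 464 to 835 against 728 to 841 CPM (8 of 8). WT 2 was the WT mouse with the highest macrophage and monocyte sums. Mast cell markers were at 76.0 to 117 CPM against 109 to 144 CPM, and those of eosinophils and basophils at 7.14 to 42.0 against 26.0 to 30.1 CPM. Red cell markers differed in the opposite direction, at 185 to 448 CPM in WT and 91.8 to 95.3 CPM in SAKI mice, with 6 of 6 tested below 0. Platelet markers were at 42.2 to 44.9 CPM against 36.8 to 48.7 CPM. The part of other leukocytes, of blood content or of WT 2's position in the values of the granule genes was not tested.

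**Figure D5:**
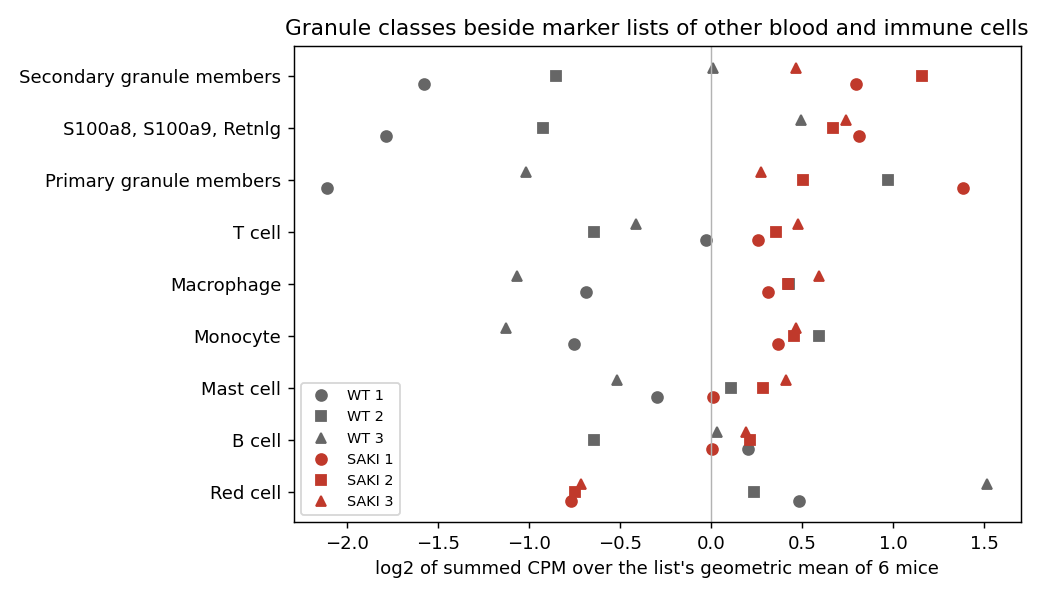
Summed CPM of the 3 granule gene classes and of marker lists of other cells in each mouse, as log2 of the sum over its geometric mean of the 6 mice. Grey symbols are WT and red symbols SAKI mice. The secondary granule, alarmin, T cell and red cell sums separate the groups, the red cell sum in the opposite direction, and WT 2 (grey square) lies inside the SAKI range for primary granule genes and above it for monocyte genes.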

How the data were processed

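IngWAT of 3 WT and 3 SAKI mice was profiled by RNA-seq, and groups and mouse numbers were taken from the sample labels. The authors deposited raw counts per gene for each library and a table of FPKM values, in which these counts are divided by gene length and by each library's assigned total. The submitters' processing notes list Bowtie2 2.2.6, HISAT2 2.0.4 and StringTie 1.3.0, and GRCm38 as the build, with no role stated. Not given in the sources used here were the strand setting, the counting tool and the annotation release, and without the strand setting overlapping genes may share reads. The labels and the methods name different RNA extraction reagents.

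Counts were analysed with edgeR 4.0.16 (limma 3.58.1, R 4.3.3): filterByExpr (minimum count 10, total 15), TMM factors, genotype alone, the quasi-likelihood test and Benjamini-Hochberg adjustment over all 15400 genes tested. All 10 genes passed the filter, and log2 fold changes are given with model standard errors. Other settings were DESeq2 1.42.0, limma-voom, scaling by RLE or the upper quartile, no filter, a mean of at least 5 CPM, the replicate number as a block, limma on log2(FPKM + 1) with and without a filter (FPKM of at least 1 in 3 libraries) or log2(FPKM + 0.1), and each library left out. Single values were compared with exact two-sided permutation tests over mice. The fit was tested on simulated counts.

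The 10 genes and the 25 gene lists, of which 22 hold none of the 10, were chosen with earlier results of these data known. Named besides the 10 are Slc35d3, up to 4 genes of smallest p in a list, and the 5 genes nearest in profile to S100a8 and to Lcn2. A gene that this rule picks from the lists is not reported here. Padi4, Clec4d, Clec4e and the genes given below the filter were named after their values were seen. Counting limits (3 counts for a count of 0) cover counting error only. Promoter windows are from RefSeq, with all 10 genes matched.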

Additional observations from a re-analysis of the deposited data

How the results depend on the processing

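Of the 10 genes, 9 kept an estimate above 0 under every setting that tested them. Elane fell to -0.55 without WT 1, -0.17 without WT 3 and -0.51 without SAKI 1, and was highest, 1.61, without WT 2. No gene of the 10 was called by edgeR, and the number was 1 with DESeq2 and 0 with RLE or upper-quartile scaling, limma-voom, no filter, a mean of at least 5 CPM (which tested 2 of them), the FPKM fits or the replicate block. Leaving out 1 mouse gave 0 to 3 of the 10, the 3 being Ngp, Camp and Mpo without WT 2. The count over all genes, 5 in edgeR, was 685 with DESeq2, 8 without a filter, 9 with either FPKM pseudocount and 1 with the replicate block, and ran from 1 to 2598 with 1 mouse left out, the highest without WT 2. Chosen after seeing the data, leaving out 1 mouse gave 3 to 7 of the 10 genes without overlap, the highest without WT 3. Among all genes tested, 15.8% (without SAKI 2) to 26.1% (without WT 2) had every SAKI mouse above every WT mouse. At an unadjusted p under 0.05 (edgeR), also chosen after seeing the data, 2 to 6 of the 10 genes were higher in SAKI mice. The share of all genes was then 3.96% (without SAKI 2) to 17.0% (without WT 2). The count of 6, without WT 3, stood beside 6.32%. The count of 2, without WT 1, SAKI 1 or SAKI 2, stood beside 8.09%, 5.31% and 3.96%. Mice with the same number did not deviate together (r = 0.066, 0.067 and 0.063 across genes). No mouse correlated best with its own number, so the block has no basis in the design. The secondary to primary ratio stayed within 1 SD of its value under FPKM, without Lcn2, without Cd177 and with each mouse left out. The ratios of class means with 1 mouse left out were also chosen after seeing the data. In CPM they ran from 1.42 to 4.81 for the primary genes, 2.29 to 4.01 for the secondary genes and 1.73 to 4.10 for S100a8, S100a9 and Retnlg. In FPKM they ran from 0.894 to 3.71, from 3.12 to 5.02 and from 1.86 to 4.15. The primary FPKM ratio turned below 1 without WT 1 (0.894) and without SAKI 1 (0.948). Mpo, Elane, Camp and Cd177 had 0 to 34 counts per library.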

Other observations

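The profile of S100a8 across the 6 mice was lowest in WT 2, higher in WT 1 and highest in WT 3. By the root mean squared difference of centred log2 CPM over the 6 libraries, the genes nearest to it were Kng2 (0.195), a kininogen gene, Gm8251 (0.232), the neutrophil collagenase gene Mmp8 (0.234), Cemip (0.248), whose product takes part in hyaluronan breakdown, and the chitinase-like gene Chil3 (0.249). Its partner S100a9 was farther away, at 0.680, and Lcn2 was at 0.400. Kng2 counts were 9, 8 and 47 in WT mice and 26, 35 and 45 in SAKI mice, the highest of the WT mice being WT 3, as for S100a8.

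The genes nearest to Lcn2 were Ddit4 (0.131), an inhibitor of mTOR signalling induced by stress, Prg3 (0.157), an eosinophil granule gene, 1300017J02Rik (0.174), Kcnk1 (0.178), a potassium channel gene, and the glutathione transferase gene Gsta4 (0.180). Ddit4 was at 132, 119 and 222 CPM in WT mice and at 203, 235 and 219 CPM in SAKI mice, so that WT 3 lay within the SAKI range, as it did for Lcn2. These genes were the nearest of 15400, and so close a likeness over 6 libraries is a description of these mice.

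Markers of tissue cells beyond blood were also read. Fibroblast and progenitor markers summed to 3893 to 11451 CPM in WT and 10485 to 11778 CPM in SAKI mice, endothelial markers to 1275 to 1426 against 1108 to 1170 CPM, and epithelial markers, which are among the other sources of Lcn2, to 3.31 to 20.9 against 4.76 to 7.70 CPM. Proliferation genes summed to 69.3 to 78.1 CPM in WT and 89.3 to 115 CPM in SAKI mice (6 of 6 with estimates above 0). Immediate early genes summed to 232 to 470 against 142 to 184 CPM (0 of 8 above 0). The endothelial, proliferation and immediate early sums separated the groups, and the fibroblast and epithelial sums overlapped. All 10 adipocyte markers had estimates below 0, and 0 of them passed edgeR's adjusted threshold.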
